A study of Sus scrofa with 8 samples.

Results

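Porcine microRNAs (miRNAs) with 4-digit numbers that begin with 2 to 8, such as miR-2320 and miR-7134, were followed in the corpus luteum, the gland that forms from the ovulated follicle and secretes progesterone. The members were chosen by name alone: every non-control target whose name starts with ssc-miR- and whose number lies in this range, whichever arm of the hairpin it measures, detected or not. The rule took 38 of the 686 miRNA targets of the array and of its 407 porcine names, and the 38 belong to 25 miRNA numbers. The range was nevertheless proposed with the pregnancy and cycle differences of these arrays known, so those differences are given below as a description. Counts of members past the threshold stand beside the number or the share of all tested targets that passed it, and nothing is read from them.

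All samples were luteal tissue of crossbred gilts, 6 to 8 months old and drawn from a single commercial herd, collected after death on day 14. The 4 cyclic gilts had not been inseminated and were sampled on day 14 of the estrous cycle, and the 4 pregnant gilts had been inseminated and were sampled on day 14 of pregnancy. Each sample was labelled with Cy3 and hybridised alone to a 1-colour Agilent miRNA array, and the labels describe the samples of a group as separate biological replicates. Whole luteal tissue holds many cell types, so fewer cells of a type and less of a miRNA per cell cannot be told apart in these values.

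A miRNA is cut from a hairpin precursor, and either arm of the hairpin (5p or 3p) can be loaded into an Argonaute protein, where bases near its 5′ end guide it to messenger RNAs that are then repressed. miRNA numbers follow the order of registration, so the high numbers mark sequences registered late, mostly from deep sequencing and often in a few species only. Late in the cycle the porcine corpus luteum is about to regress, whereas signals of the conceptus maintain it in early pregnancy.

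The 8 arrays had between 22.8% and 28.8% of spots well above background. Of the 2 gonadal targets, miR-202-3p was detected on all 8 arrays (mean −2.15 in the cycle and −1.41 in pregnancy, log2) and miR-202-5p on 5 (−4.29 and −4.57), and the list summed to 0.210 to 0.540 and 0.343 to 0.626 in scaled intensity. The markers of skeletal and heart muscle (5 targets for miR-1, miR-133 and miR-206) and liver (2 targets for miR-122) were detected on none. Of 5 leukocyte targets, 4 were detected, miR-142-3p on no array, and 3 had the higher mean in the cyclic group. The 3 were miR-223-3p, miR-142-5p and miR-155-5p. The summed scaled intensity of the list ran from 0.469 on cyclic replicate 1 to 4.43 on another cyclic array, and from 0.476 to 0.569 on the pregnant arrays. The erythroid list (4 targets, 2 detected) summed to 1.29 to 7.23 in the cycle and 1.27 to 6.23 in pregnancy, the endothelial list (2 targets, both detected) to 6.29 to 7.49 and 7.10 to 8.73, and the smooth muscle list (2 targets, both detected) to 1.15 to 1.67 and 1.14 to 1.58. The part of leukocytes in the differences below was not tested. Slide 3 held 2 arrays of each group, their replicates 3 and 4. Slide 1 held the other 2 pregnant arrays and slide 2 the other 2 cyclic ones, and slide 1 was scanned on a different day from slides 2 and 3.

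Detection required that 0.5 or more of the spots of some probe of the target were well above background on that array. By this rule 10 of the 38 members were detected on at least 1 array, which is 26.3%. Among the 290 porcine targets numbered below 2000, let-7 included, the share was 53.8% (156 targets), and among the 79 numbered above the range it was 17.7% (14 targets). On all 8 arrays 5 members (13.2%) were detected, against 40.7% of the targets below 2000 and 10.1% of those above the range. The number of members seen on a single array was 7 to 9 in the cyclic group and 7 to 9 in the pregnant group. These shares describe the array, and their differences were not tested.

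**Figure D1:**
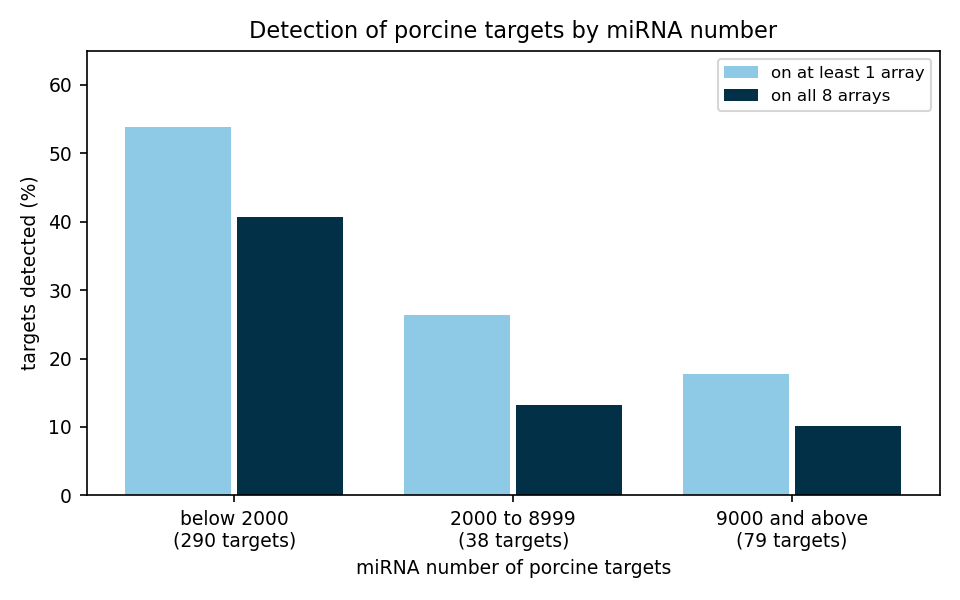
Share of porcine targets detected (%, vertical axis) by miRNA number, on at least 1 array (light bars) and on all 8 arrays (dark bars). The members reach 26.3% and 13.2%, below the 53.8% and 40.7% of targets numbered below 2000.

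The 28 undetected members had mean background-subtracted intensities from −1.43 to 6.36, with a median of −0.306, while the median of the negative control spots lay between 0.437 and 1.29 per array. They were miR-2320-3p, miR-2411, miR-3613, miR-4331, miR-4334-3p, miR-4335, miR-4337, miR-6782-3p, miR-7139-5p, miR-7857-3p and both arms of miR-7135, miR-7136, miR-7137, miR-7138, miR-7140, miR-7141, miR-7142, miR-7143 and miR-7144. The highest mean of 6.36 belonged to miR-7140-5p. Single spots above background occurred in 8 of the 28. For these miRNAs the arrays give a limit of detection and no level.

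Both arms were on the array for 13 of the miRNAs. In 9 of them neither arm was detected, in 3 a single arm was, and in 1, miR-7134, both were. For miR-2320 and miR-4334 the detected arm was 5p, on 5 and 8 arrays, and for miR-7139 it was 3p, on 3 arrays. The opposite arms of these 3 miRNAs were detected on 0 arrays. The brightness of different probes cannot be ranked, so this describes which arm the array could measure.

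The RefSeq table of the porcine assembly Sscrofa11.1 held 22 of the 25 miRNA numbers, 21 of them on a named chromosome. Of these 21 miRNA genes, 16 lay within the span of another gene, and none had another listed miRNA gene within 10 kb. The gene for miR-7134 lay within TNRC6B, which encodes a partner of Argonaute in miRNA silencing. The gene for miR-4334 lay within DNPEP, an aspartyl aminopeptidase gene, and that for miR-4338 within HIVEP3, a zinc finger transcription factor gene. Those for miR-2366, miR-2483 and miR-7139 lay within MAP1A, a microtubule-associated protein gene, TENM1, a teneurin gene, and E2F7, the gene of a transcription repressor of the cell cycle. The table used gives no strand, so a shared transcript with these genes is not implied, and miR-3613, miR-4332 and miR-4339 were not matched.

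Of the 38 members, 8 were detected on at least 4 of the 8 arrays, whatever the group, and so entered the fit over 212 targets. The values below are log2 of the intensity divided by a 75th percentile of its array, with a floor at −4.86. That percentile was taken over the targets detected on all 8 arrays. A member seen mainly in one group could enter through that group alone, as miR-2320-5p and miR-2366 did, each with 4 pregnant arrays and 1 cyclic array. Past the threshold, an adjusted p below 0.05 in limma with Benjamini-Hochberg adjustment, were 3 of the 8: miR-2320-5p, higher in pregnancy, and miR-4334-5p and miR-4338, lower. With the 75th percentile taken over all probes the split was 4 higher and 1 lower, with 62 of 212 targets passing and the median of all differences at 0.30. The remaining counts in this paragraph are those of the scaling first described. Of all 212 tested targets 11.3% passed, made up of 5.19% of the 212 higher and 6.13% of the 212 lower in pregnancy. The arrays of the groups did not overlap in 4 members, against 17% of the 212. Positive differences were seen in 5 of the 8 members and 107 of the 212 targets, with a median difference of 0.34 in the members and 0.00376 over all. Because the range was drawn with these values in view, and the filter favours members that are high in a group, none of this sets the members apart.

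**Figure D2:**
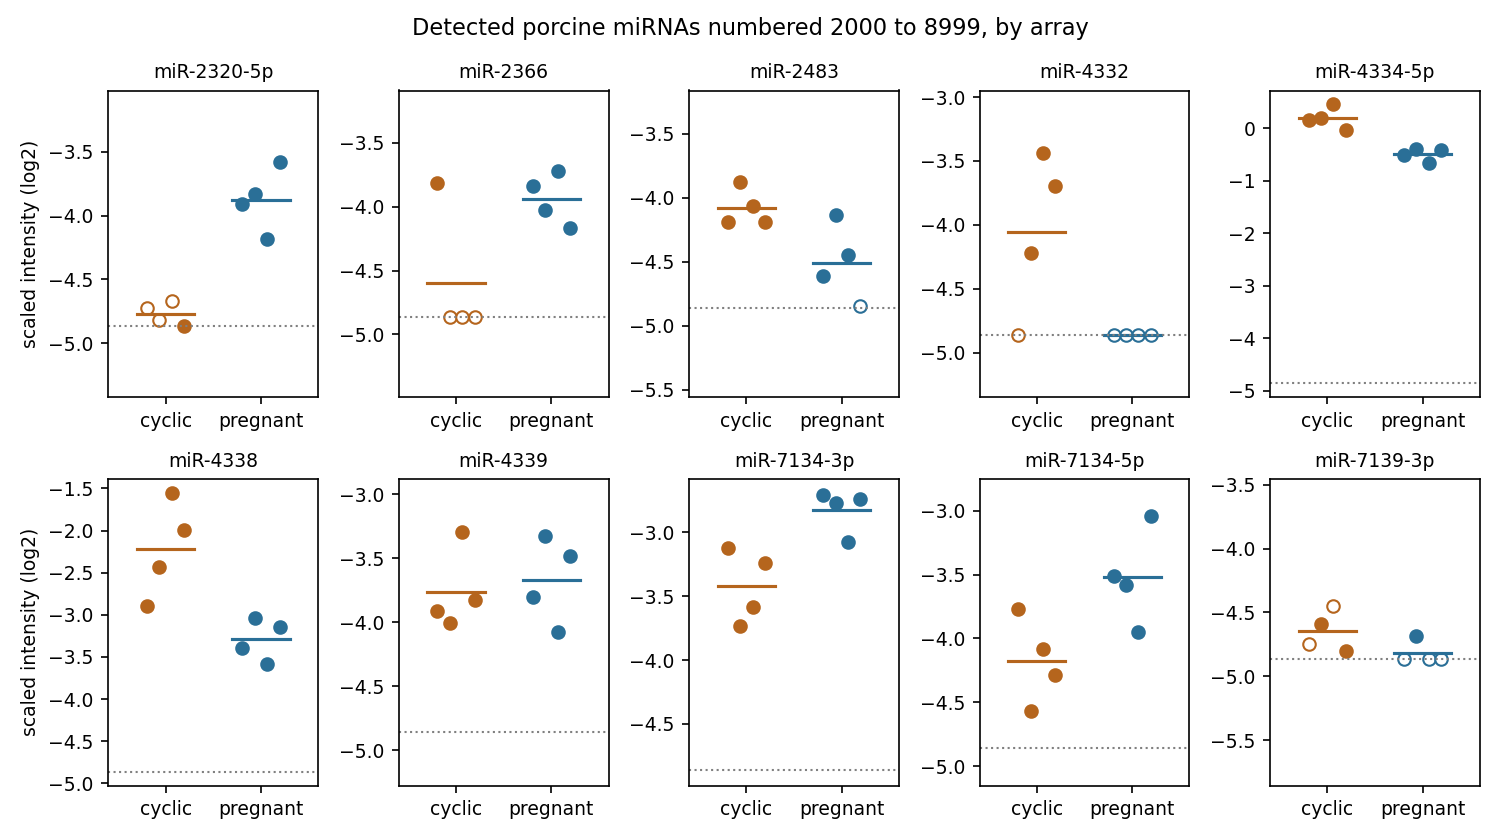
Scaled intensity (log2, vertical axis, a separate range in each panel) of the 10 detected members on the 4 cyclic and 4 pregnant arrays, each point an array in replicate order, filled where the target was detected, with a line at the group mean and a dotted line at the floor of −4.86. The points of miR-2320-5p, miR-4334-5p, miR-4338 and miR-7134-3p do not overlap between the groups.

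Among the members lower in pregnancy, miR-4334-5p had intensities of 143 to 339 and a median spread between its spots of 3.16% (coefficient of variation), the lowest of the 10 detected members. It read 0.15, 0.19, 0.45 and −0.04 on cyclic replicates 1 to 4. On pregnant replicates 1 to 4 it read −0.50, −0.39, −0.67 and −0.40. Every pregnant array lay below every cyclic one, and the smallest gap was that between cyclic replicate 4 and pregnant replicate 2. The means were 0.19 ± 0.20 in the cycle and −0.49 ± 0.13 in pregnancy (SD, n = 4 per group), a difference of −0.68 ± 0.13 (SE), so that pregnancy stood at 0.624 of the cyclic level. Its other probe, detected on all 8 arrays as well, gave −0.67, again with no overlap. The difference was −0.74 on slide 3, which holds 2 arrays of each group, and −0.62 on slides 1 and 2, where slide and group cannot be told apart. It passed in all 8 fits that left out an array, with values from −0.76 to −0.59, and in 14 of 19 other settings. The call ended on slide 3 alone, on slides 1 and 2 alone, with scan day as a block (−0.73), with no scaling between arrays (−0.72) and with the 75th percentile taken over all probes (−0.38), a scaling that moved the median of all targets by 0.30.

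The second lower member, miR-4338, had a larger difference and a wider spread. Its values were −2.89, −2.43, −1.55 and −1.996 on cyclic replicates 1 to 4. In pregnancy they were −3.39, −3.04, −3.58 and −3.14. The groups did not overlap. Cyclic replicate 1 lay closest to the pregnant arrays, and it was the cyclic array nearest the pregnant mean in 50% of all 212 tested targets. The cyclic mean was −2.22 ± 0.58 and the pregnant mean −3.29 ± 0.25 (SD, n = 4 per group), a difference of −1.07 ± 0.27 (SE), which puts pregnancy at 0.477 of the cyclic level. Its other probe gave −1.17, also without overlap.

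The size and the call of this member varied with the arrays fitted. Its difference was −1.59 on slide 3 and −0.55 on slides 1 and 2, where slide and group cannot be told apart. Whether the difference depended on the slide was not tested. Without cyclic replicate 1 it was −1.29, the 1 fit with an array left out in which the member still passed. In the remaining 7 such fits it did not pass, with values from −1.15 without pregnant replicate 2 to −0.85 without cyclic replicate 3. In those fits 7 to 12 of all 212 targets passed, against 24 with every array included. With scan day as a block miR-4338 was −1.14 and did not pass. With normexp background correction, which added an offset of 50 to every spot, it was −0.44 and did not pass. Such an offset by itself shrinks log2 differences at intensities of 21.4 to 79.1, the range of this member. miR-4338 passed in 12 of 19 other settings. The call also ended on slide 3 alone, on slides 1 and 2 alone, with the floor at the 5th percentile, with the total gene signal of the scanner and with no detection filter.

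The member that passed as higher was miR-2320-5p, which was close to the limit of detection. It was well above background on all 4 pregnant arrays and on cyclic replicate 4 alone. It read −4.72, −4.82, −4.67 and −4.86 on the cyclic arrays, the last at the floor. On the pregnant arrays it read −3.91, −3.83, −4.18 and −3.58. The groups lay apart, with the cyclic values at the floor or just above it. The means were −4.77 ± 0.09 and −3.88 ± 0.25 (SD, n = 4 per group), a difference of 0.89 ± 0.16 (SE) or 1.85-fold, which the floor limits on the cyclic side.

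In intensity the same probe gave 7.62, 8.66, 10.54 and 10.67 on cyclic and 15.8 to 18.3 on pregnant arrays. Its other probe was detected on 0 arrays and stayed at the floor throughout, with mean intensities of 1.26 in the cycle and 3.28 in pregnancy. The difference was 0.88 on slide 3 and 0.90 on slides 1 and 2. It passed in all 8 fits that left out an array, with values from 0.79 to 0.99. Those fits kept the targets, scaling and floor set with every array. They therefore do not test its entry through the pregnant arrays or its cyclic values near the floor. Of 18 other settings it passed in 14. The 4 without a call were normexp with its offset of 50 at 0.16, scan day as a block at 0.88, slide 3 alone and slides 1 and 2 alone. Averaging the log2 values of both probes gave 0.45 and kept the call. The other probe was constant at the floor, so that average shrank the difference and its standard error alike and gave no second reading.

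Both arms of miR-7134 had the greater mean on the pregnant arrays, and neither passed. The 3p arm read −3.12, −3.73, −3.58 and −3.24 on cyclic replicates 1 to 4. Its pregnant values were −2.70, −2.77, −3.08 and −2.74. These groups did not overlap, although cyclic replicate 1 and pregnant replicate 3 nearly met. The mean was −3.42 ± 0.29 in the cycle and −2.82 ± 0.17 in pregnancy (SD, n = 4 per group), a difference of 0.60 ± 0.18 (SE) or 1.51-fold. The other probe of this arm, detected on 6 arrays, gave 0.63 without overlap.

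For the 5p arm the cyclic values were −3.77, −4.57, −4.08 and −4.28. The pregnant values were −3.51, −3.58, −3.95 and −3.04. Here the groups overlapped, since cyclic replicate 1 lay above pregnant replicate 3. The difference was 0.65 ± 0.23 (SE), from −4.18 ± 0.34 in the cycle to −3.52 ± 0.37 in pregnancy (SD, n = 4 per group). Both arms ranked cyclic replicate 1 highest and cyclic replicate 2 lowest among the cyclic arrays, and pregnant replicate 3 lowest among the pregnant ones. Both passed without cyclic replicate 1 (0.69 for the 3p arm and 0.79 for the 5p arm), in the authors' table (0.70 and 0.81) and with the 75th percentile over all probes (0.89 and 0.95). The 3p arm also passed with the mean of all probes, among targets detected on all 8 arrays and without the variance trend, 5 of 19 other settings in all, against 2 of 19 for the 5p arm. The 3p arm gave 0.50 on slide 3 and 0.69 on slides 1 and 2, and the 5p arm 0.69 and 0.62.

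miR-2366 had 1 cyclic array apart from the others. It read −3.82 on cyclic replicate 1 and lay at the floor on the other 3 cyclic arrays. On the pregnant arrays it read −3.84, −4.03, −3.72 and −4.17, all well above background. Cyclic replicate 1 therefore lay among the pregnant arrays, and the groups overlapped. The difference was 0.66 ± 0.24 (SE; cyclic −4.60 ± 0.52, pregnant −3.94 ± 0.20, SD, n = 4 per group) and did not pass. It passed at 0.84 with the 75th percentile over all probes, and at 0.92 without cyclic replicate 1. In the latter fit the 3 cyclic arrays left were all undetected and at the floor, so their spread was 0 by construction and the size is set by the floor. The other probe, detected on 2 arrays, gave 0.05.

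miR-2483 was well above background on all 4 cyclic arrays and on 3 of the 4 pregnant ones. Its cyclic values were −4.19, −3.87, −4.06 and −4.19. Its pregnant values were −4.61, −4.14, −4.44 and −4.85. The groups overlapped through pregnant replicate 2, which lay above cyclic replicates 1 and 4. The difference was −0.43 ± 0.18 (SE; −4.08 ± 0.15 in the cycle, −4.51 ± 0.30 in pregnancy, SD, n = 4 per group) and did not pass, and the other probe gave −0.43 as well.

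The remaining tested member, miR-4339, was detected on all 8 arrays with nearly equal group means. It ranged from −4.01 to −3.30 on the cyclic arrays and from −4.07 to −3.33 on the pregnant ones. The ranges overlapped almost wholly, and the difference of 0.09 ± 0.22 (SE) did not pass. Its sign was not fixed either, at −0.22 on slide 3 and 0.40 on slides 1 and 2.

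**Figure D3:**
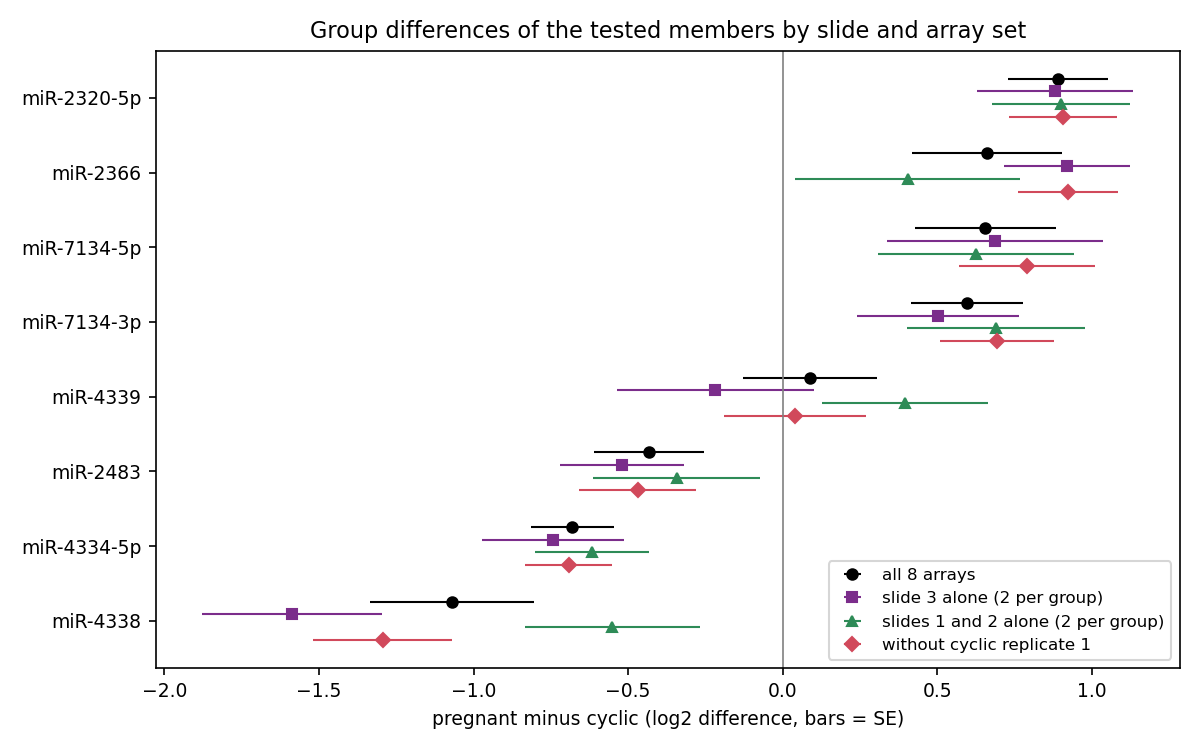
Difference of pregnant minus cyclic (log2, horizontal axis) for the 8 tested members with all 8 arrays, on slide 3 alone, on slides 1 and 2 alone and without cyclic replicate 1, each with its standard error. Signs are the same in all 4 sets except for miR-4339, and miR-4338 runs from −1.59 to −0.55.

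Below the 4 arrays needed for the fit were 2 detected members, described without a test. miR-4332 was well above background on cyclic replicates 2, 3 and 4, where it read −4.22, −3.44 and −3.70, and lay at the floor on cyclic replicate 1 and on all 4 pregnant arrays. A cyclic mean of −4.08 against a pregnant limit of −4.67 put it 1.51-fold higher in the cycle. Cyclic replicate 1 was undetected and entered that mean at its measured signal below the floor, so the ratio is no firm lower bound. The pregnant limit is the mean, over the pregnant arrays, of the dimmest signal well above background or the signal of the probe itself, whichever was higher, and no lower than the floor. Its intensities were 16.0, 17.9 and 24.4 on those 3 cyclic arrays, 7.32 on cyclic replicate 1 and 0.814 to 5.87 in pregnancy. The other probe was detected on 0 arrays.

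miR-7139-3p was seen on cyclic replicates 2 and 4 and on pregnant replicate 2. Its means were −4.65 in the cycle and −4.82 in pregnancy, both next to the floor. At this brightness no difference between the groups could be shown.

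Each detected member had 2 probes, which hybridise to the same miRNA. Both were detected on at least 4 arrays in miR-2483, miR-4334-5p, miR-4338, miR-4339 and miR-7134-3p, and in these 5 the probes gave the same sign, and miR-4338 had the widest gap of these, at −1.07 and −1.17. In miR-2320-5p, miR-4332 and miR-7134-5p the dimmer probe was detected on 0 arrays, and it gave no second reading.

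**Figure D4:**
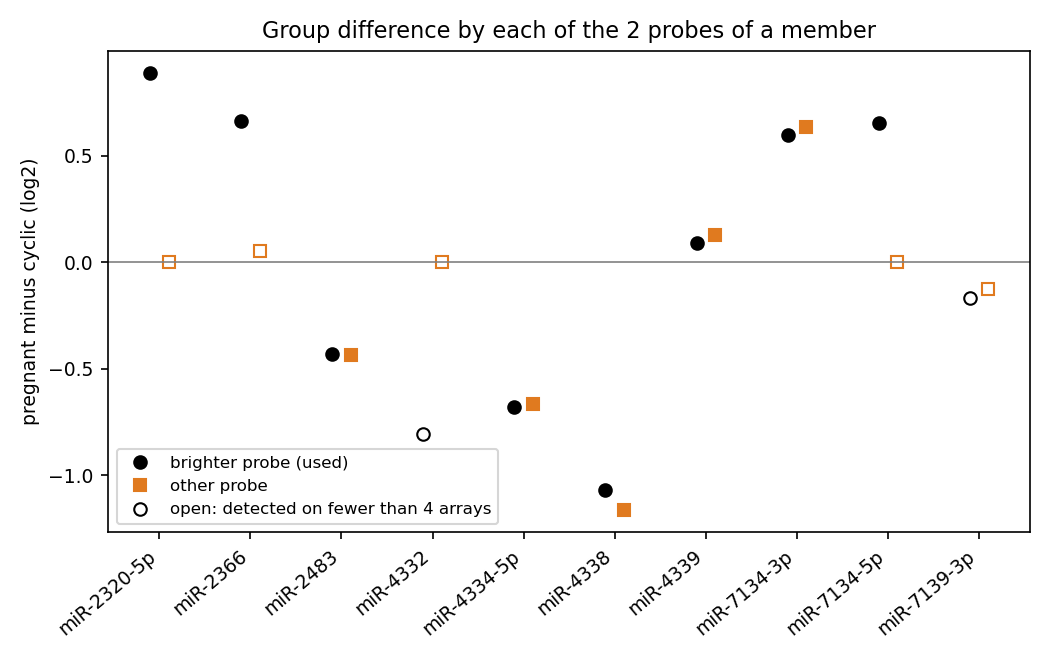
Difference of pregnant minus cyclic (log2, vertical axis) for the brighter and the other probe of each of the 10 detected members, open where the probe was detected on fewer than 4 arrays. The 2 probes of miR-4338 lie at −1.07 and −1.17, and open symbols at 0 are probes at the floor on every array.

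Across the members, cyclic replicate 1 was often the cyclic array nearest the pregnant mean: this held for miR-2366, miR-2483, miR-4338 and both arms of miR-7134, 5 of the 8. Over all 212 tested targets the share was 50%, the highest of the 4 cyclic arrays. Leaving it out brought 6 of the 8 members past the threshold (4 higher, 2 lower), miR-2366 among them with its cyclic arrays all at the floor, with 81 of 212 targets passing in that fit. Leaving out any other array gave 2 members, miR-2320-5p and miR-4334-5p, with 7 to 12 of the 212 targets passing.

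**Figure D5:**
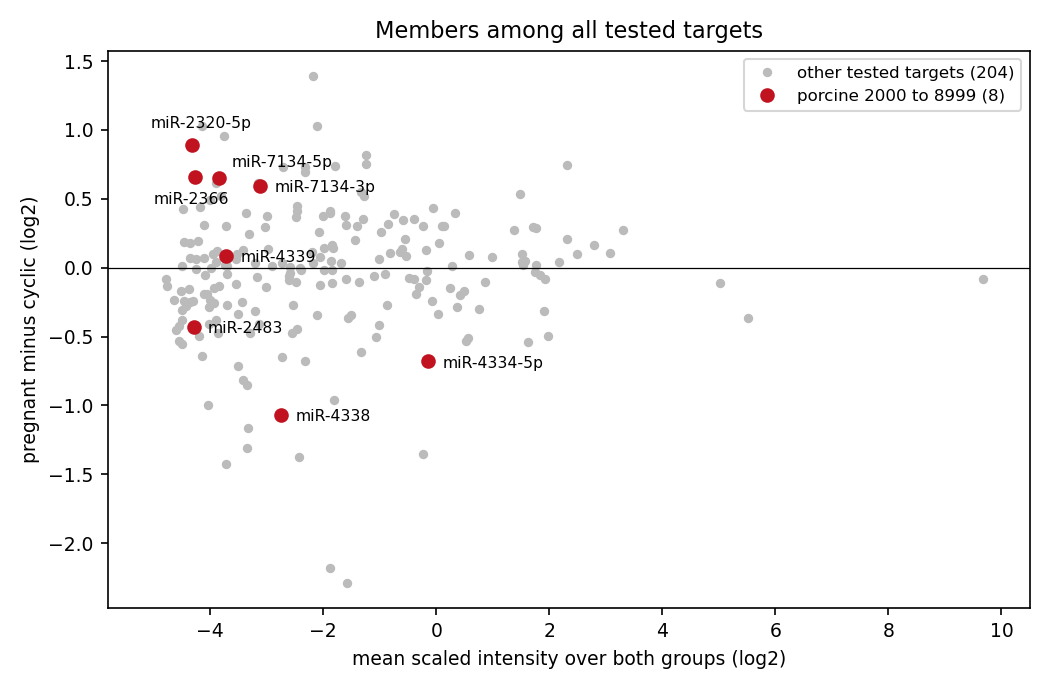
Difference of pregnant minus cyclic (log2, vertical axis) against the mean scaled intensity of each target (log2, horizontal axis) for the 8 tested members and the 204 other tested targets. Most members lie at the dim end, where the means of 6 of them are below −3, and miR-4334-5p at −0.15 is the bright exception.

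At the edges of the number range the arrays measured little. The nearest names below it, both arms of miR-1839, were detected on 0 arrays, as was the nearest above it, miR-9784-5p. Just inside lay miR-2320, whose 5p arm is described above, and miR-7857-3p, detected on 0 arrays.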

How the data were processed

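Values came from 8 Agilent scanner files, 1 per sample. The authors deposited background-subtracted intensity values made with Feature Extraction 10.7.3.1, per the file headers. Their table of processed values was on a log2 scale and centred per spot, as a comparison of the deposited values with the scanner intensities showed, and its scaling between arrays is unknown. In the log2 units of that table the column medians of the cyclic arrays, in replicate order, were 0.0108, −0.000283, 0.000689 and −0.000205. Those of the pregnant arrays were −0.000302, 9.45e-05, −9.45e-05 and 0.0318. In 2 deposited columns, treated as a score, cells above 100 (3 in all) were read as missing.

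Control spots were left out. Outlier spots were left out of the intensities but counted in the detection calls. Spot intensities were averaged per probe, divided by the 75th percentile of the targets detected on all 8 arrays, given a floor (log2 −4.86) at percentile 1 of the signals of detected probes, and put on the log2 scale. The brightest probe stood for a target. The test of pregnant minus cyclic took targets seen on 4 or more arrays, with limma 3.58.1 (lmFit, eBayes with trend, two-sided) in R 4.3.3 and Benjamini-Hochberg adjustment at 0.05 over 212 targets. The script was tested on simulated data. Array number limits the precision, and the test measures the spread between these samples alone.

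Members and lists were chosen with earlier results of these data known. Every detected member was named, undetected ones were listed, and other genes were named only as neighbours in the RefSeq table of Sscrofa11.1. Alternatives covered background correction, scaling, source of the values, filters, floor, probe averaging, targets fitted, slide, scan day, replicate block, variance model, detection rule and each array left out. The normexp background correction added an offset of 50 to every spot. Slides 1 and 2 alone were added after seeing the data.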

Additional observations from a re-analysis of the deposited data

Results flagged for a closer look

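In 23 groups of 4 arrays checked for a value far from the other 3, 2 were found. In both the other 3 arrays were tied at the floor, so any value above it stands out, and the usual chance rate of about 1 in 20 does not apply. miR-2366 read −3.82 on cyclic replicate 1, whereas the other 3 cyclic arrays lay at the floor of −4.86. miR-7139-3p read −4.68 on pregnant replicate 2, whereas the other 3 pregnant arrays lay at the floor.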

How the results depend on the processing

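Of the 8 tested members 3 passed, and 24 of all 212 targets. The count was 5 with the 75th percentile over all probes (62 of 212), 5 in the authors' table (17 of 212) and 1 with normexp (11 of 212). It was 0 in limma on slide 3 alone (9 of 212) and 0 with scan day as a block (2 of 212). On slides 1 and 2 alone, chosen after seeing the data, it was 0 as well (0 of 212). Leaving out an array gave 2 to 6, the 6 without cyclic replicate 1 (81 of 212, against 7 to 12 without another array). The difference of miR-4339 reversed to −0.22 with slide as a block and on slide 3 alone, to −0.018 with scan day as a block and to −0.027 without pregnant replicate 2, in a range of −0.027 to 0.24 over the fits that left out an array (0.24 without cyclic replicate 3). Over all members' differences and alternatives, 175 kept direction and side of the threshold, 23 lost the call, 11 gained it and 4 reversed. All 23 losses fell on the 3 members that had passed, since only these could lose a call. The 175 include the fits in which members that had not passed stayed so. Deviations of same-numbered arrays correlated weakly (0.104, 0.0976, −0.177 and 0.160 over 212 targets), and 4 of 8 arrays were nearest their own number. These values do not settle whether the numbers pair the samples. The replicate block left 3 members past the threshold, with 26 of 212 targets passing. The number of members detected was 18 instead of 10 when 1 spot above background sufficed. The cause of these changes was not tested. Dim signal limits 6 of the 8 tested members, whose mean lies below −3.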

Other observations

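The scanner software's own call detected 13 members, 3 more than the rule used above. These were miR-7140-5p on 4 arrays, miR-7137-5p on 2 and miR-7137-3p on 1. Their mean intensities in the cycle and in pregnancy were 7.21 and 5.52 for miR-7140-5p, 6.64 and 3.46 for miR-7137-5p, and 4.19 and 0.602 for miR-7137-3p.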
